A study of Mus musculus with 6 samples.

Results

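Most of the genes described here encode proteins of the cornified envelope, the cross-linked protein shell of the outermost keratinocytes of the skin. *Casp14*, *Tgm1* and *Tgm3* encode enzymes instead, and *Sprr2j-ps* is a pseudogene by its symbol. The set holds all genes whose symbol in the annotation of the array begins with *Lce* or *Sprr* and a digit. *Ivl*, *Flg*, *Casp14*, *Tgm1*, *Tgm3* and *Rptn* were added to these. Of the 38 genes that meet this rule, 34 have a probe set that carries no other gene symbol, among 18820 such genes on the array. Where a gene had more than 1 such probe set, the one with the highest mean over the 6 arrays was used. The other 4, *Flg*, *Lce1a1*, *Sprr2a2* and *Sprr2a3*, lie only on probe sets that carry several symbols and were not counted. RefSeq also lists *Lce1j*, *Lce1k*, *Lce1m*, *Lce3d* and *Lce3e*. Their symbols are not in the annotation of the array, so they were not analysed. The 34 genes are 10 of the *Lce1* group, 4 of the *Lce3* group, *Lce6a*, 14 *Sprr* genes and 5 single genes.

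The study compared long-term EMT cells with control cells to learn which genes change when tumor cells keep up an epithelial-mesenchymal transition. Both are the mouse mammary tumor line EpRas (BALB/c background), EpH4 epithelial cells made to overexpress Ha-Ras, so that the controls carry the oncogene too. The 3 EMT samples had received TGF-β1 at 2 ng/ml over 14 days, and the 3 Control samples were left without it. RNA from each sample, 150 ng, was probed on 1 MoGene-1_1-st-v1 array (Affymetrix). All cells come from 1 line, and the samples are described as triplicate wells. The paper says of its data in general that they stem from 3 independent experiments in triplicate, without naming the arrays. Every p-value here rests on the spread among these samples alone, which may be technical.

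When a keratinocyte dies at the skin surface, transglutaminases tie involucrin, loricrin, small proline-rich (SPRR) and late cornified envelope (LCE) proteins into an insoluble layer under the plasma membrane. Most of the genes for these proteins lie side by side in the epidermal differentiation complex, which is on chromosome 3 in the mouse and also holds many S100 genes. Mammary epithelial cells do not build a cornified envelope.

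All levels are log2 values on the scale of the deposited data, and a log2 fold change is the EMT mean minus the Control mean. A level of 4.47, the 95th percentile of 1006 olfactory receptor probe sets, was taken as the background level. A gene is said to have passed, or to have risen or fallen, where its fold was above 1.5 and its adjusted p under 0.05 (limma, Benjamini-Hochberg method over 35556 probe sets, n = 3 per group). SE is the standard error of a log2 fold change. By this rule 276 genes, or 1.47%, were higher in EMT cells, and 281, or 1.49%, were lower. Control replicate 1 stood apart from the other arrays. It correlated with Control replicates 2 and 3 at 0.987 and 0.984 across probe sets, against 0.995 between those arrays, and with the EMT arrays at 0.975 to 0.979. Because whole cultures were measured, more cells that express a gene and more RNA per cell cannot be told apart.

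Of the 34 genes, 5 rose in EMT cells and 0 fell. They were *Lce1c*, *Lce1e*, *Lce1f* and *Lce1h*, which encode late cornified envelope proteins, and *Casp14*, a caspase of terminal keratinocyte differentiation that takes part in filaggrin processing. *Lce1g* and *Lce1i* lay more than 1 log2 unit higher as well but did not pass. An unadjusted p under 0.05 from limma was reached by 11 of the 34, of which only *Lce1a2* was lower, where 8.81% of all genes were higher and 8.46% lower at that threshold. The other 27 genes had log2 fold changes between -0.57 and 0.38, and every one of the 14 *Sprr* genes was among them.

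The sequences before the *Lce1* genes are shown because the genes with large differences lie next to each other, and to show how far these stretches are alike. In the gene order of RefSeq, *Lce1e*, *Lce1f*, *Lce1g*, *Lce1h* and *Lce1i* are 5 neighbours in a row, with *Lce1d* between *Lce1c* and *Lce1e*. RefSeq upstream windows of GRCm38.p6 were matched for 31 of the 34 genes and for 6 of the 7 beyond 1 log2 unit. *Lce1f* has none here. The 250 bases before the annotated start are given 5′ to 3′ on the strand of the gene. They are chr3:92765066-92765315 (minus) for *Lce1h*, chr3:92752339-92752588 (minus) for *Lce1g*, chr3:92778900-92779149 (minus) for *Lce1i*, chr3:92709075-92709324 (minus) for *Lce1e*, chr3:92678997-92679246 (plus) for *Lce1c* and chr3:92687211-92687460 (minus) for *Lce1d*. Capitals mark the longest stretches found in all of *Lce1e*, *Lce1g*, *Lce1h* and *Lce1i*, of which there are 2 of equal length.
Lce1h: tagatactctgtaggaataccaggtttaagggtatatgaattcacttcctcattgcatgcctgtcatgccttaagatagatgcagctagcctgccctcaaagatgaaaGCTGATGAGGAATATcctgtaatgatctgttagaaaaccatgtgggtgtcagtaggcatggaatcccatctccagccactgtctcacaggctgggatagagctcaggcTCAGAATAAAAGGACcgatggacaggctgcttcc
Lce1g: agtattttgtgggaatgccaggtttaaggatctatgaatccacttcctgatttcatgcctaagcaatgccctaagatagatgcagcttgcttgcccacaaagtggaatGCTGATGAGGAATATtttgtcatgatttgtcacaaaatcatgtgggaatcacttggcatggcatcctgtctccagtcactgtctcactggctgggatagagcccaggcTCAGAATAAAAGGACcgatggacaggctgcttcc
Lce1i: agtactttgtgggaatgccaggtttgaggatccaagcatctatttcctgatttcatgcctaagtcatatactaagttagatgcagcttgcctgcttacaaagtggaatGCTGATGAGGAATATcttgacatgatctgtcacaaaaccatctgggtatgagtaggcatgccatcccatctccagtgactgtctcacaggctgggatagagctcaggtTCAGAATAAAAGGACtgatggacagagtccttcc
Lce1e: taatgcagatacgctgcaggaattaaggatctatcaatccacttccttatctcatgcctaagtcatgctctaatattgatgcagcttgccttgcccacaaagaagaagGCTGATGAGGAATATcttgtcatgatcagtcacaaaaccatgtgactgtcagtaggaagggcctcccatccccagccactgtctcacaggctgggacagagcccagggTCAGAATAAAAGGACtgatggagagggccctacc
Lce1c: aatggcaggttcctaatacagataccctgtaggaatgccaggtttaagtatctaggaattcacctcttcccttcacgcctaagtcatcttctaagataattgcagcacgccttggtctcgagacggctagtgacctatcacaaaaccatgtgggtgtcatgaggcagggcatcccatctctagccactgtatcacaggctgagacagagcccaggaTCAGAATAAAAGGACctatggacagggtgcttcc
Lce1d: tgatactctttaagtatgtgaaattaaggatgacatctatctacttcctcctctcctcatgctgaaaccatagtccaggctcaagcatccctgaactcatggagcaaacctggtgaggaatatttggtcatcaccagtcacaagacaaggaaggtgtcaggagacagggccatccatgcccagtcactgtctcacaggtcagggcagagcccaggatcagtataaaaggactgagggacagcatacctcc

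*Lce1e*, *Lce1g*, *Lce1h* and *Lce1i* were 78.0% to 85.6% identical to each other over these 250 bases (median 80.4% of 6 pairs). Pairs of 1 of them with another *Lce1* gene were 50.5% to 72.4% identical (median 67.2%, 20 pairs), and pairs without any of them 51.0% to 74.9% (median 63.1%, 10 pairs). Both stretches in capitals have 15 bases. They were taken from the windows of *Lce1e*, *Lce1g*, *Lce1h* and *Lce1i*, so their presence in these 4 was fixed by that choice. *Lce1c* was left out of that choice. Any stretch of this length is rare in unrelated windows by its length alone, so the shares given here only describe it. The first, GCTGATGAGGAATAT, begins at position -142 from the start in each of the 4 genes, and was found on this strand in 4 of the 32851 windows of all genes, or 0.0122%, which are these 4. The second, TCAGAATAAAAGGAC, begins at position -34 in each, and was found in 6 windows, or 0.0183%, of which 5 belong to the set. The fifth of these is *Lce1c*, where it begins at -34 as well, while *Lce1c* lacks the first. *Lce1d*, which did not pass, holds neither as an exact match. It has close variants of both, cctggtgaggaatat for the first and tcagtataaaaggac for the second.

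Known motifs were searched in the same windows on both strands, and none of them contains another. TATAAA (the TATA box) was in 0 of the 6 windows of genes beyond 1 log2 unit and in 15 of the 25 other windows of the set, against 12.4% of all windows. In *Lce1d* it begins at position -30, within the variant of the second stretch in capitals. That stretch itself reads AATAAA at the matching place, which the search did not count. TGANTCA, the AP-1 motif, was in 0 of 6 and 11 of 25, against 6.75%. The windows with TGANTCA were those of *Ivl*, *Rptn* and *Sprr* genes, and no *Lce* window held it, whether its gene had risen or not. Most windows with TATAAA were of *Sprr* genes too, and of the *Lce1* genes only *Lce1d* had it. These contrasts thus follow gene family. AACNNGTT, the core bound by Grainyhead-like factors, was in 0 of 6 and 1 of 25, against 3.64%. CACCTG, an E-box that Zeb and Snail factors bind, was in 1 of 6 and 4 of 25 (17.2% of all windows). CAGAC, which holds a Smad element, was in 1 of 6 and 8 of 25 (42.2%), and GGAAGT, an Ets core, in 3 of 6 and 7 of 25 (19.7%). A match is only a description of these letters, and the windows of related genes share sequence, so they are not independent.

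*Lce1h* had the largest difference of the 34 genes. Its level was 12.74, 12.43 and 12.59 in EMT replicates 1, 2 and 3, against 7.26, 8.88 and 10.15 in Control replicates 1, 2 and 3. Every EMT array was thus above every Control array, and the 3 Control arrays were far apart, with Control replicate 1 lowest and Control replicate 3 highest. The mean was 12.59 ± 0.16 in EMT cells and 8.76 ± 1.45 in Control cells (SD, n = 3 each), 14.2-fold higher, with a log2 fold change of 3.82 (SE 0.67, 95% confidence interval 2.20 to 5.44, limma adjusted p = 0.0484). Its log2 fold change was 3.07 without Control replicate 1 and 4.52 without Control replicate 3, both of which passed. It did not pass without any one of the other 4 arrays.

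*Lce1i* and *Lce1g*, the genes on either side of it, had the same order of arrays. Whether the probe sets of these related *Lce1* genes also read each other's RNA was not tested. *Lce1i* was at 8.43, 8.03 and 8.22 in EMT replicates 1 to 3, against 4.49, 6.22 and 7.14 in Control replicates 1 to 3. *Lce1g* was at 9.09, 8.67 and 9.03 in the EMT replicates, against 5.78, 7.20 and 7.89 in the Control replicates. In both genes the groups did not overlap, Control replicate 1 was the lowest array and EMT replicate 2 the lowest of the EMT arrays. *Lce1i* averaged 8.23 ± 0.20 in EMT cells and 5.95 ± 1.35 in Control cells (SD, n = 3 each), a log2 fold change of 2.28 (SE 0.63, 95% confidence interval 0.76 to 3.79) that did not pass (limma adjusted p = 0.169). *Lce1g* averaged 8.93 ± 0.23 in EMT cells and 6.96 ± 1.08 in Control cells, a log2 fold change of 1.97 (SE 0.51, 95% confidence interval 0.74 to 3.20) that did not pass either (limma adjusted p = 0.142). Without Control replicate 1, *Lce1g* passed at 1.38 (limma adjusted p = 0.0441), while *Lce1i* did not pass whichever of the 6 arrays was left out.

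*Lce1e*, *Lce1f* and *Lce1c* had smaller differences and Control arrays that lay closer together. *Lce1e* was at 7.14, 6.53 and 7.10 in the EMT replicates, against 5.48, 5.54 and 5.72 in the Control replicates. The groups were apart by more than the spread within either, and the lowest EMT array was again replicate 2. The mean was 6.92 ± 0.34 in EMT cells and 5.58 ± 0.12 in Control cells (SD, n = 3 each), 2.54-fold higher (log2 fold change 1.34, SE 0.18, 95% confidence interval 0.91 to 1.78, limma adjusted p = 0.0207). It did not pass without EMT replicate 1, EMT replicate 3 or Control replicate 2, at adjusted p-values of up to 0.104 and log2 fold changes of 1.23 or more.

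*Lce1f* was at 5.70, 5.57 and 5.65 in the EMT replicates, against 4.43, 4.34 and 4.77 in the Control replicates. Only Control replicate 3 of the Control arrays was above the background level. The mean was 5.64 ± 0.07 in EMT cells and 4.51 ± 0.23 in Control cells (SD, n = 3 each), 2.18-fold higher (log2 fold change 1.13, SE 0.13, 95% confidence interval 0.82 to 1.43, limma adjusted p = 0.0116). It passed where Control replicate 1 or Control replicate 3 was omitted, and missed the threshold without any other array, at adjusted p-values of up to 0.0666.

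*Lce1c* was at 5.00, 4.90 and 5.15 in the EMT replicates, against 3.98, 3.96 and 3.99 in the Control replicates. All 3 Control arrays were below the background level and all 3 EMT arrays above it, so that only a bound of its rise is known. The mean was 5.02 ± 0.13 in EMT cells and 3.98 ± 0.02 in Control cells (SD, n = 3 each), and set against the background level *Lce1c* was at least 1.46-fold higher. The fitted log2 fold change was 1.04 (SE 0.09, 95% confidence interval 0.83 to 1.25, limma adjusted p = 0.00552). It was the only one of the 34 genes that passed whichever array was left out, at 0.97 to 1.10.

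*Casp14*, on chromosome 10 and so outside the complex, rose as well. It was at 7.76, 7.40 and 7.28 in the EMT replicates, against 4.51, 4.88 and 5.53 in the Control replicates. Control replicate 1 was the lowest and Control replicate 3 the highest of the Control arrays, the order also seen in *Lce1e*, *Lce1g*, *Lce1h* and *Lce1i*. The mean was 7.48 ± 0.25 in EMT cells and 4.97 ± 0.52 in Control cells (SD, n = 3 each), 5.68-fold higher (log2 fold change 2.51, SE 0.27, 95% confidence interval 1.85 to 3.16, limma adjusted p = 0.0104). With 1 array left out, *Casp14* passed only where Control replicate 1 or Control replicate 3 was the one omitted, and the log2 fold change lay between 2.27 and 2.78.

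**Figure D1:**
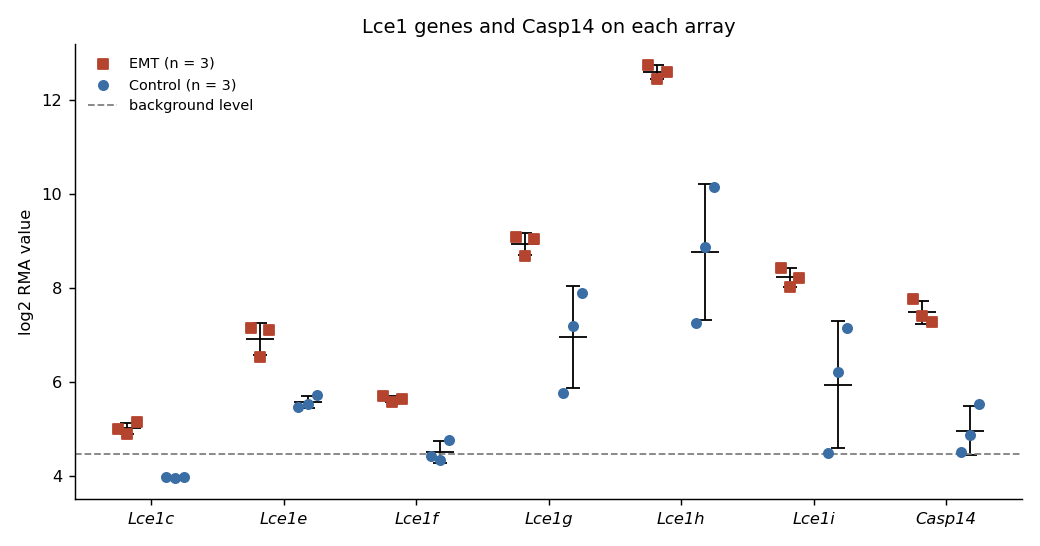
Log2 level (vertical axis) of the 7 genes that differed by more than 1 log2 unit on each array, with EMT arrays left of Control arrays. Points are single arrays, bars are group means with the SD, and the Control points of *Lce1g*, *Lce1h* and *Lce1i* spread over 2.11 to 2.89 log2 units while the EMT points of the same genes stay within 0.31 to 0.42.

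The spread among the Control arrays set the 7 genes apart from each other. The distance between the lowest and the highest Control array was 2.89 log2 units for *Lce1h*, 2.65 for *Lce1i* and 2.11 for *Lce1g*, and 99.6%, 99.5% and 99.1% of all genes had a distance no larger than these. It was 1.02 for *Casp14* (94.7% of genes at or below), 0.43 for *Lce1f*, 0.24 for *Lce1e* and 0.03 for *Lce1c*. Of the 7, 5 were in the order Control replicate 1, 2, 3, which 23.4% of all genes followed, and 6 had EMT replicate 2 as the lowest EMT array, as 27.3% of all genes did. All 7 were read on the same 6 arrays, so these counts are not independent of each other.

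**Figure D2:**
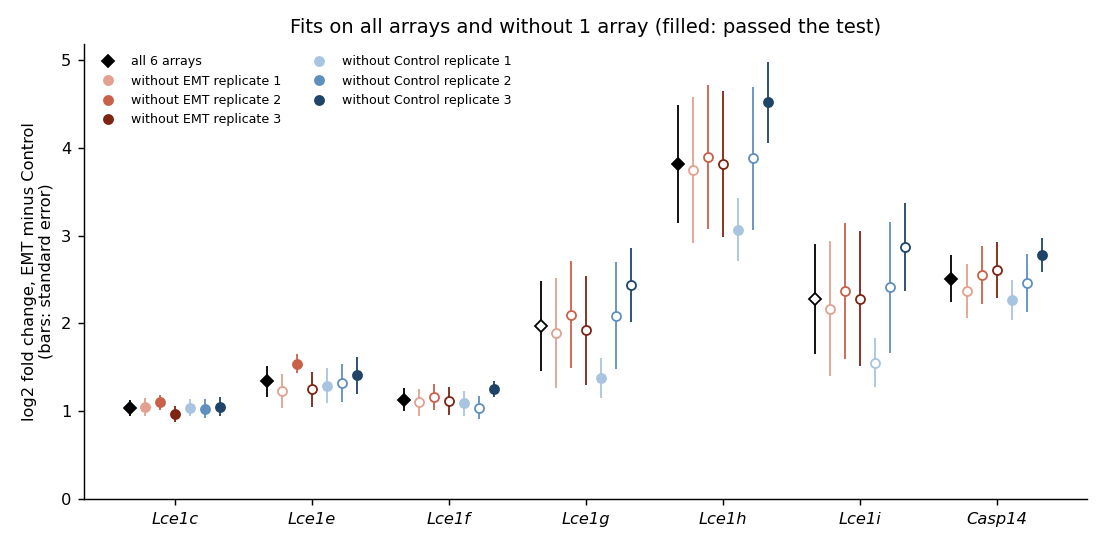
Log2 fold change, EMT minus Control (vertical axis, bars are the standard error), of the same 7 genes from all 6 arrays and with each array left out in turn, where filled points passed the test and open points did not. *Lce1c* is filled throughout, *Lce1i* is open throughout, and *Lce1h* is filled with all 6 arrays at 3.82, without Control replicate 1 at 3.07 and without Control replicate 3 at 4.52.

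The number of the 34 genes that passed was 6 without Control replicate 1, 5 without Control replicate 3, 2 without EMT replicate 2, and 1 without EMT replicate 1, EMT replicate 3 or Control replicate 2.

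The other 4 *Lce1* genes did not pass. *Lce1d*, which lies between *Lce1c* and *Lce1e*, was at 4.15, 4.18 and 3.94 in the EMT replicates, against 3.86, 4.23 and 4.10 in the Control replicates. All of these values are below the background level, and the groups overlapped (log2 fold change 0.03, 95% confidence interval -0.27 to 0.33). *Lce1l* lies past *Lce1i*, with *Lce1j*, *Lce1k* and *Kprp* between them. It was at 4.31, 4.27 and 4.45 in the EMT replicates, against 4.06, 4.08 and 4.10 in the Control replicates. These values are also below the background level (log2 fold change 0.26, limma adjusted p = 0.208). *Lce1b* averaged 5.24 ± 0.20 in EMT cells and 5.44 ± 0.04 in Control cells (SD, n = 3 each), and *Lce1a2* had a log2 fold change of -0.33 (limma adjusted p = 0.292). *Lce1j* and *Lce1k*, which follow *Lce1i*, and *Lce1m* were not analysed here. *Kprp*, a keratinocyte proline-rich protein gene of the same stretch, had a log2 fold change of 0.06 (SE 0.31).

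In humans, *LCE3* genes are known to be induced when the skin barrier is broken. Of the 4 *Lce3* genes and *Lce6a*, 0 passed in limma, and 0 had an unadjusted p under 0.05. The *Lce3* genes had log2 fold changes of -0.28 to 0.13, with 95% confidence intervals that together ran from -0.71 to 0.56. Only *Lce3a* and *Lce3c* had a group mean above the background level. *Lce3c* was at 5.11, 4.86 and 4.94 in the EMT replicates, against 5.11, 4.99 and 5.16 in the Control replicates. A probe set shared by *Lce3b*, *Lce3c* and *Lce3f* had a log2 fold change of 0.37 (SE 0.11) and did not pass.

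Apart from the pseudogene *Sprr2j-ps*, the *Sprr* genes encode proline-rich proteins that bridge other envelope proteins and are known to respond to stress in many epithelia. In limma 0 of the 14 passed in either direction, and 2, *Sprr2b* and *Sprr3*, had an unadjusted p under 0.05, both higher in EMT cells, where 8.81% of all genes were. In 10 of them both group means were at or below the background level. The log2 fold changes lay between -0.03 and 0.38, and the 95% confidence intervals of all 14 together ran from -0.30 to 0.66. These intervals are of measured values, and for the 10 genes at background they set no limit on a change in the RNA.

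*Sprr2a1*, *Sprr1a*, *Sprr1b* and *Sprr4* had a group mean above the background level. *Sprr2a1* was at 5.86, 6.09 and 5.94 in the EMT replicates, against 5.97, 5.63 and 5.59 in the Control replicates. The groups overlapped, at a log2 fold change of 0.23 (SE 0.13, limma adjusted p = 0.527). *Sprr2b* had the largest difference, with 3.95, 3.89 and 3.97 in the EMT replicates and 3.38, 3.51 and 3.79 in the Control replicates. These values are all below the background level, and the log2 fold change of 0.38 did not pass (SE 0.12, limma adjusted p = 0.226). *Sprr3* likewise lay below it in both groups, at 4.16 ± 0.07 in EMT cells and 3.87 ± 0.11 in Control cells (SD, n = 3 each, limma adjusted p = 0.22). *Sprr1a* and *Sprr1b*, which are markers of squamous differentiation, had log2 fold changes of 0.10 (SE 0.10) and 0.01 (SE 0.08), and the sign of the value for *Sprr1b* turned under other scalings of the arrays.

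The single genes other than *Casp14* did not pass. *Ivl*, the gene of the transglutaminase substrate involucrin, was at 5.15, 5.46 and 4.86 in the EMT replicates, against 5.18, 4.81 and 4.78 in the Control replicates. The groups overlapped, and the log2 fold change was 0.23 (SE 0.18, 95% confidence interval -0.21 to 0.68, limma adjusted p = 0.688). *Tgm1*, the membrane-bound transglutaminase of keratinocytes, was at 4.74, 5.25 and 5.12 in the EMT replicates, against 6.31, 5.31 and 5.21 in the Control replicates. Here Control replicate 1 was the highest array, 1.05 above the mean of the other Control arrays, and the log2 fold change of -0.57 did not pass (SE 0.31, 95% confidence interval -1.33 to 0.18, limma adjusted p = 0.521).

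*Tgm3*, a soluble transglutaminase that cross-links envelope precursors, was at 5.11, 5.28 and 5.05 in the EMT replicates, against 5.17, 5.10 and 5.00 in the Control replicates, a log2 fold change of 0.06 (SE 0.09). *Rptn*, the gene of repetin, was at 3.48, 3.39 and 3.32 in the EMT replicates, against 3.41, 3.59 and 3.30 in the Control replicates, all below the background level. The groups overlapped in both genes. *Flg*, which encodes profilaggrin, was read only through a probe set shared with *Hrnr*, and its log2 fold change there was -0.03 (SE 0.10) at a level below background.

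**Figure D3:**
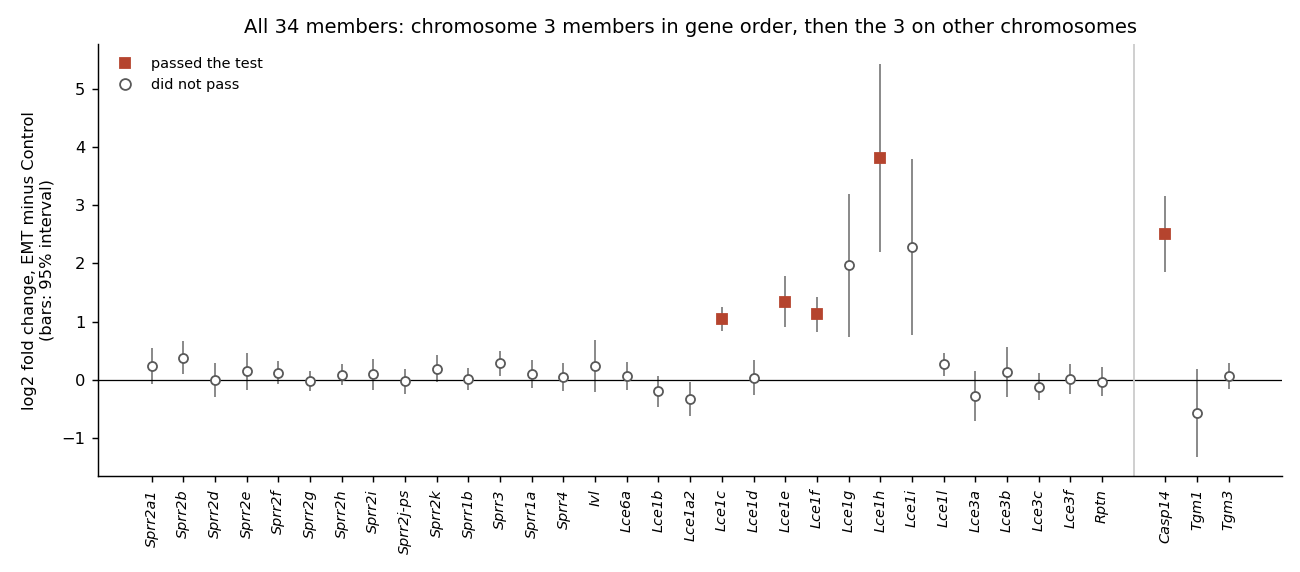
Log2 fold change, EMT minus Control (vertical axis, bars are the 95% confidence interval), of the members of the set in the gene order of the complex, with the genes of other chromosomes at the right. The values beyond 1 log2 unit inside the complex lie at *Lce1c* and from *Lce1e* to *Lce1i*, while the *Sprr* genes stay between -0.03 and 0.38.

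Over the whole set, the groups did not overlap for 12 of the 34 genes with the EMT arrays higher, against 12.6% of all genes on the array. The median log2 fold change of the 34 genes was 0.09, and that of all genes was 0.02. In the *Lce1* group 7 of 10 genes were apart in this way and the median was 1.08. In the *Sprr* group it was 4 of 14 with a median of 0.09. Of the 34 genes, 17 had a group mean above the background level, and all 7 beyond 1 log2 unit were among them.

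Related genes were read from 7 lists, in which "unadjusted" counts are those at a limma p under 0.05 before adjustment. Over all genes these were 8.81% higher and 8.46% lower. Of 19 measured genes for other envelope proteins and precursors, 0 rose and 1 fell (unadjusted 0 higher and 3 lower), with a median log2 fold change of 0.02. *Ppl*, which encodes periplakin, a plakin that anchors the envelope at desmosomes, was at 5.08, 5.40 and 5.50 in the EMT replicates, against 9.76, 8.87 and 8.83 in the Control replicates. It fell by 3.83 in log2 units (SE 0.27, limma adjusted p = 0.00274). *Lor*, the gene of loricrin, the main protein of the finished envelope, had means at or below the background level in both groups.

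Of 17 genes for the lipid layer around the envelope, 1 rose and 2 fell (unadjusted 1 higher and 3 lower), and the median log2 fold change was 0.01. *Ugcg*, which makes glucosylceramide, rose with a log2 fold change of 1.18 (SE 0.12, limma adjusted p = 0.00751). *Sult2b1*, a cholesterol sulfotransferase, fell by 2.99, and *Cers3*, the synthase of ceramides with very long chains, fell by 1.95 (log2). Of 17 proteases and inhibitors of the epidermis, 0 rose and 3 fell (unadjusted 1 higher and 5 lower), with a median of 0.01. These were the membrane serine protease *St14* (matriptase), with a log2 fold change of -3.97, its partner *Prss8* (prostasin), with -1.30, and the kallikrein *Klk10*, with -3.30.

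Of 17 keratins of stratified epithelia, 0 rose and 1 fell (unadjusted 0 higher and 2 lower), with a median log2 fold change of 0.07. *Krt14*, a basal keratin, was at 8.04, 7.04 and 7.27 in the EMT replicates, against 9.77, 9.44 and 9.81 in the Control replicates, and fell by 2.22 in log2 units (SE 0.27, limma adjusted p = 0.0144). *Krt1* and *Krt10*, the keratin pair of differentiating keratinocytes, had log2 fold changes of 0.02 (SE 0.09) and 0.01 (SE 0.12).

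Of 26 regulators of epidermal differentiation, 0 rose and 4 fell (unadjusted 0 higher and 13 lower), and their median log2 fold change was -0.60. *Grhl2*, a Grainyhead-like factor of epithelial barrier genes, was at 5.15, 5.05 and 4.90 in the EMT replicates, against 8.57, 8.21 and 7.76 in the Control replicates, and fell by 3.15 in log2 units (SE 0.21, limma adjusted p = 0.00241). *Ahr*, the aryl hydrocarbon receptor, had a log2 fold change of -2.26, *Notch1*, a receptor that acts in suprabasal keratinocytes, of -1.86 and *Gata3* of -0.94. Among 7 subunits of AP-1, a factor known to bind the promoters of envelope genes, 1 rose and 0 fell (unadjusted 2 higher and 0 lower), with a median of -0.01. *Fosb* was at 7.94, 7.92 and 7.87 in the EMT replicates, against 6.93, 6.52 and 5.93 in the Control replicates, a log2 fold change of 1.45 (SE 0.24, limma adjusted p = 0.04). Of 12 S100 genes of the same complex, 0 rose and 2 fell (unadjusted 0 higher and 2 lower, median -0.20), *S100a14* (log2 fold change -2.58) and *S100a4* (-0.68).

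Of the list genes that passed, *Ppl*, *Sult2b1*, *St14*, *Klk10* and *Grhl2* passed whichever array was left out. *Ugcg* missed the threshold without EMT replicate 2 (limma adjusted p = 0.0542), *Cers3* without any EMT array, and *Krt14* without EMT replicate 2, EMT replicate 3 or Control replicate 2. With 1 array left out, *Ahr*, *Notch1*, *Gata3* and *Fosb* passed only where Control replicate 1 or Control replicate 3 was omitted. *Prss8*, *S100a14* and *S100a4* only where it was Control replicate 1. None of these genes changed direction, and the log2 fold change of *Fosb* lay between 1.19 and 1.69.

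**Figure D4:**
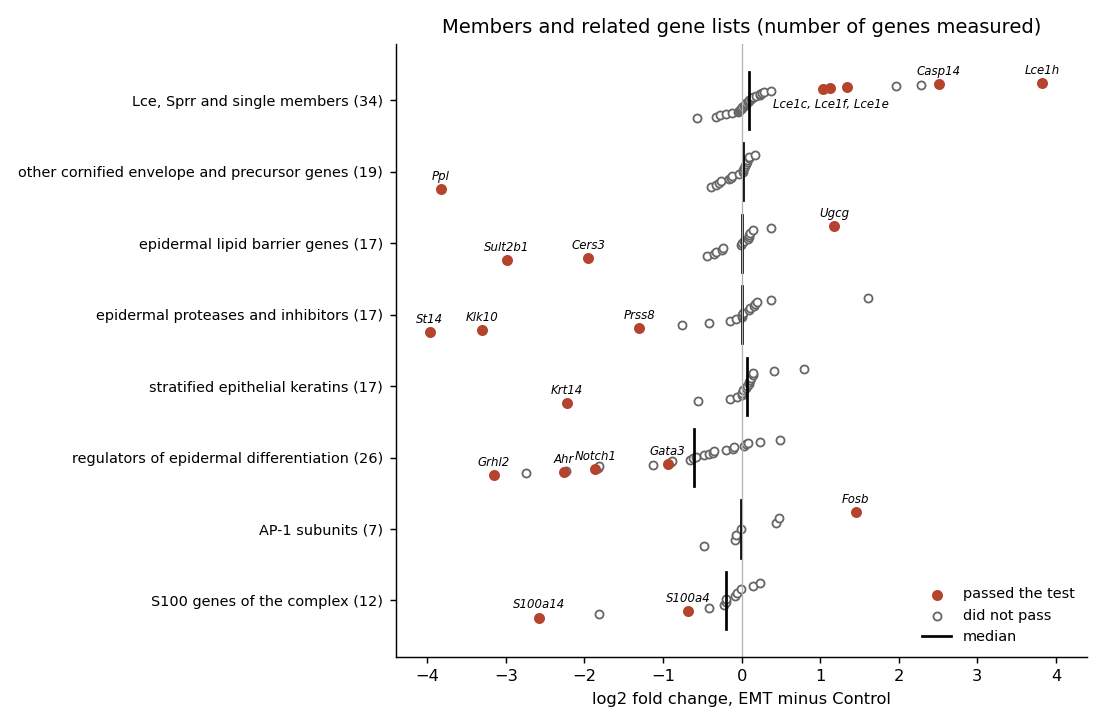
Log2 fold change, EMT minus Control (horizontal axis), of the 34 genes (top row) and of 7 lists of related genes, with the number measured in brackets. Each point is a gene, filled where it passed the test, and the black bar is the median. The filled points of the top row lie at 1.04 to 3.82, while those of the other lists lie below 0 apart from *Ugcg* at 1.18 and *Fosb* at 1.45.

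The cultures were also read for markers of the cells they could hold. Of 8 listed markers of keratinocytes 6 were measured, and the sum of their log2 levels was 31.3 to 32.2 on the EMT arrays and 34.2 to 35.8 on the Control arrays. Of these, 0 rose (unadjusted 0 higher and 2 lower), *Krt14* fell, and the means of *Lor* were at or below the background level in both groups. For 8 markers of mammary epithelium the sums were 64.1 to 66.1 on the EMT arrays and 74.8 to 81.2 on the Control arrays. *Krt7*, *Epcam* and *Cdh1* fell (unadjusted 0 higher and 3 lower). *Krt8* and *Krt18* had log2 fold changes of 0 and 0.01, and *Elf5*, *Muc1* and *Cldn3* did not pass either. For 8 markers of fibroblasts the sums were 44.0 to 45.2 on the EMT arrays and 45.8 to 50.1 on the Control arrays, and 0 of the 8 passed (unadjusted 1 higher and 2 lower). For 8 markers of macrophages the sums were 44.9 to 47.5 on the EMT arrays and 45.4 to 49.1 on the Control arrays, again with 0 that passed (unadjusted 0 higher and 2 lower). For 8 endothelial markers they were 37.2 to 39.0 on the EMT arrays and 35.2 to 35.6 on the Control arrays, where *Cdh5* rose and the means of *Pecam1*, *Kdr*, *Tek* and *Emcn* were at or below the background level in both groups. The part of other cells in the values of the *Lce1* genes was not tested.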

How the data were processed

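Total RNA of 3 EMT and 3 Control samples was labelled with biotin and hybridized to 1 array each. The authors processed the arrays with the Robust Multi-array Average (RMA) algorithm in Affymetrix Expression Console (version not given in the sources used here), which corrects background, normalizes quantiles and summarizes probes. The deposited values are on the log2 scale with 2 decimals for 35556 probe sets, and were used without further normalization. Quantile normalization sets every array to nearly the same distribution, so a change in total RNA per cell cannot be seen. The genome build behind the probe design is not given in the sources used here, and 0 columns of samples were left unused. Of the probe sets, 21218 have 1 gene symbol in the platform annotation, 1881 several and 12457 none.

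EMT was set against Control with lmFit and eBayes of limma 3.58.1 (R 4.3.3, two-sided, no covariate), and p-values were adjusted over the 35556 probe sets by the Benjamini-Hochberg method. To pass, a probe set needed a fold above 1.5 and an adjusted p under 0.05. An exact permutation test of 3 against 3 arrays cannot go below p = 0.1 and was not used. The script was tested on simulated data. Full values are given for genes of the set that passed or differed by more than 1 log2 unit and for the single genes of the rule, and of each list up to 6 of the genes that passed are named, those that changed most. Other genes named were chosen after their values were seen. The genes of the set, the lists, the tests and this rule were chosen with earlier results of these data known. For a gene below the background level on all arrays of a group, a fold is given as a bound against that level.

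Sequences are from RefSeq (GRCm38.p6), compared by global alignment with Biopython 1.88. Chromosomes and gene order are from RefSeq as well. Alternatives were the methods' t-test with and without adjustment, no fold threshold or one of 2, the replicate number as a block, a trended and robust prior, a second quantile normalization, arrays shifted to 1 median, a fit without dim probe sets, other choices of probe set per gene, the 90th and 99th background percentiles, and fits without each array in turn. The number of arrays limits the precision.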

Additional observations from a re-analysis of the deposited data

How the results depend on the processing

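The methods' t-test at an unadjusted p called 1326 probe sets, 7 of the 34 genes (the 5 and also *Lce1g* and *Lce1i*), 5 proteases and inhibitors and 7 regulators of epidermal differentiation, and with Benjamini-Hochberg adjustment it called 69 probe sets, 0 of the 34 genes and 0 genes of each of the 7 lists. A fold above 2 left 420 probe sets and 1 S100 gene. A background level at the 99th percentile left 11 of the 34 genes above it, and one at the 90th percentile 21. With each array left out in turn, 205 to 954 probe sets passed, 1 to 6 of the 34 genes, 1 other envelope or precursor gene each time (1 to 1), 1 to 3 lipid barrier genes, 2 to 3 proteases and inhibitors, 0 to 1 keratins, 1 to 6 regulators, 0 to 1 AP-1 subunits and 0 to 2 S100 genes. The values did not settle whether replicate numbers pair the samples. Deviations from the group means of arrays with the same number correlated at 0.19, 0.02 and 0.25 across probe sets. EMT replicates 1 and 3 correlated best with the Control array of the same number, while EMT replicate 2 correlated best with Control replicate 1 (0.06). With the replicate block 4 of the 34 genes passed, *Lce1h* did not (adjusted p = 0.0768 from limma), and 0 AP-1 subunits and 1 S100 gene passed. The sign turned only for genes of the set that had not passed. It turned for *Sprr1b* at -0.03 with quantile normalization again and -0.02 with equal array medians, and for *Lce3f* at -0.02 with equal array medians. With 1 array left out the log2 fold change ranged from -0.04 to 0.10 for *Lce3f*, -0.02 to 0.05 for *Sprr1b*, -0.01 to 0.14 for *Sprr2i*, -0.06 to 0.04 for *Sprr2j-ps*, -0.08 to 0.11 for *Lce1d*, -0.08 to 0.09 for *Sprr2d*, -0.01 to 0.11 for *Tgm3*, -0.10 to 0.04 for *Rptn* and -0.02 to 0.12 for *Sprr4*. Over all alternatives, values of the 34 genes kept their direction and side of the threshold 518 times, lost the call 21 times, gained it 3 times and turned sign 19 times. The causes of these changes were not tested.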
